A study of Mus musculus with 6 samples.

Results

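The genes described here are the myosin binding protein genes *Mybpc1*, *Mybpc2* and *Mybph* together with the gene that faces each of them on the opposite strand, *Gm48752*, *Gm44646* and *Adora1*. They are 6 of the 52636 genes in the deposited count table and were taken from it by symbol. The members were chosen by the counts of these same libraries, with their genotype difference known. Their differences between genotypes are therefore given as a description and without p-values, and nothing is read from their threshold calls. The question was how the counts of each locus divide between its strands and how they differ between the genotypes.

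RNA of tibialis anterior (TA) muscle was taken from male C57BL/6 mice, with 3 libraries for iMS*Bmal1*-/- and 3 for iMS*Bmal1*+/+, and sequenced after depletion of ribosomal RNA. Mice of both groups carry floxed *Bmal1* and the transgene HSA-MCM, a Cre recombinase driven by the human skeletal actin promoter, which is active in skeletal muscle fibers once tamoxifen is given. At 12 to 16 weeks of age, the iMS*Bmal1*-/- mice were injected with 2 mg of tamoxifen per day for 5 days to delete *Bmal1*, whereas the iMS*Bmal1*+/+ mice received ethanol in sunflower seed oil as vehicle and kept the gene. Muscles were taken 5 weeks later, and since only the iMS*Bmal1*-/- mice received tamoxifen, genotype and tamoxifen cannot be told apart. The library kit marks the strand of the RNA, and the strand setting of the counting is not given in the sources used here. Each count below is given under the name it was deposited with. Without the strand setting, a count may hold reads of the named gene or of the gene that faces it. Which strand was counted was not tested.

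Myosin binding proteins are built from immunoglobulin and fibronectin domains and decorate the thick filament of the sarcomere, where they bind myosin and titin and modulate how myosin heads reach actin. *Mybpc1* encodes the slow skeletal form of myosin binding protein C and *Mybpc2* the fast skeletal form, while *Mybph* encodes the shorter myosin binding protein H. *Adora1* encodes the adenosine A1 receptor, a receptor coupled to inhibitory G proteins, and is not a sarcomere gene.

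Counts on genes added up to 2091912, 1997203 and 2716079 across iMS*Bmal1*+/+ libraries, against 2403438, 1616290 and 2068657 across iMS*Bmal1*-/- libraries. These totals are far below the read depth that the authors state, and the cause was not tested. A count of 0 leaves room for up to 3 reads, which is between 1.14 and 1.80 CPM (counts scaled by library size with TMM to a common total) in these libraries and covers counting error only. The targeted gene *Bmal1* (*Arntl*) had 5, 4 and 11 counts across iMS*Bmal1*+/+ libraries, against 13, 5 and 5 across iMS*Bmal1*-/- libraries, too few to check the genotypes. The contrast of genotypes used the quasi-likelihood test of edgeR for the 6831 genes left by its filter, with p-values adjusted by the Benjamini-Hochberg method and a threshold of 0.05. Each library carries its own sample number, but the labels do not say that these numbers are animals, so that p-values measure only the spread between these libraries. Of the genes tested, 125 (1.83%) were past the threshold, 52 (0.761%) higher and 73 (1.07%) lower in iMS*Bmal1*-/- muscle. Among the 6 members, 5 passed the filter and 2 were past the threshold, *Adora1* as higher and *Gm48752* as lower. The CPM of the genotypes did not overlap for 3 of these 5 members, against 17.3% of all genes tested. Because this contrast chose the members, nothing is read from these counts.

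In GENCODE mouse release 21 on GRCm38, *Mybph* (ENSMUSG00000042451) lies on the plus strand of chromosome 1 from 134193448 to 134201232. *Adora1* (ENSMUSG00000042429) lies on the minus strand from 134199223 to 134235431. The genes are convergent, and their 3′ ends overlap over 2010 bp of the genome. Within this stretch, 1162 bp are exonic in both genes, in 3 intervals from 134199714 to 134199850, from 134199950 to 134200136 and from 134200395 to 134201232. All 1162 bp are 3′ UTR of *Adora1*. On the *Mybph* side, 338 bp of them are coding and 824 bp are untranslated, in exons 8 to 11 of Mybph-201 and exons 8 to 10 of Mybph-202. The shared bases are 49.9% of the exonic sequence of *Mybph* and 20.1% of that of *Adora1*. Of the 4 *Adora1* transcripts, Adora1-202 and Adora1-203 reach *Mybph* with their last exon, while its other transcripts do not, the nearer of them ending at 134201349.

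*Mybpc1* (ENSMUSG00000020061) lies on the minus strand of chromosome 10 from 88518279 to 88605152, and *Gm48752* (ENSMUSG00000112841) faces its 5′ end on the plus strand from 88602472 to 88605340. *Gm48752* is annotated as a single exon of 2869 bp whose coding status is still to be established. Of its bases, 252 lie over exon 1 of *Mybpc1*, 2429 over an intron and 188 upstream of the gene. *Mybpc2* (ENSMUSG00000038670) lies on the minus strand of chromosome 7 from 44501699 to 44524656. *Gm44646* (ENSMUSG00000108607), a noncoding gene on the plus strand from 44501689 to 44504266, faces the 3′ end of *Mybpc2* and overlaps its exons 27 and 28 by 192 bp, of which 122 are 3′ UTR and 70 are coding. Its other exonic bases are 443 over introns of *Mybpc2* and 10 beyond its end.

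**Figure D1:**
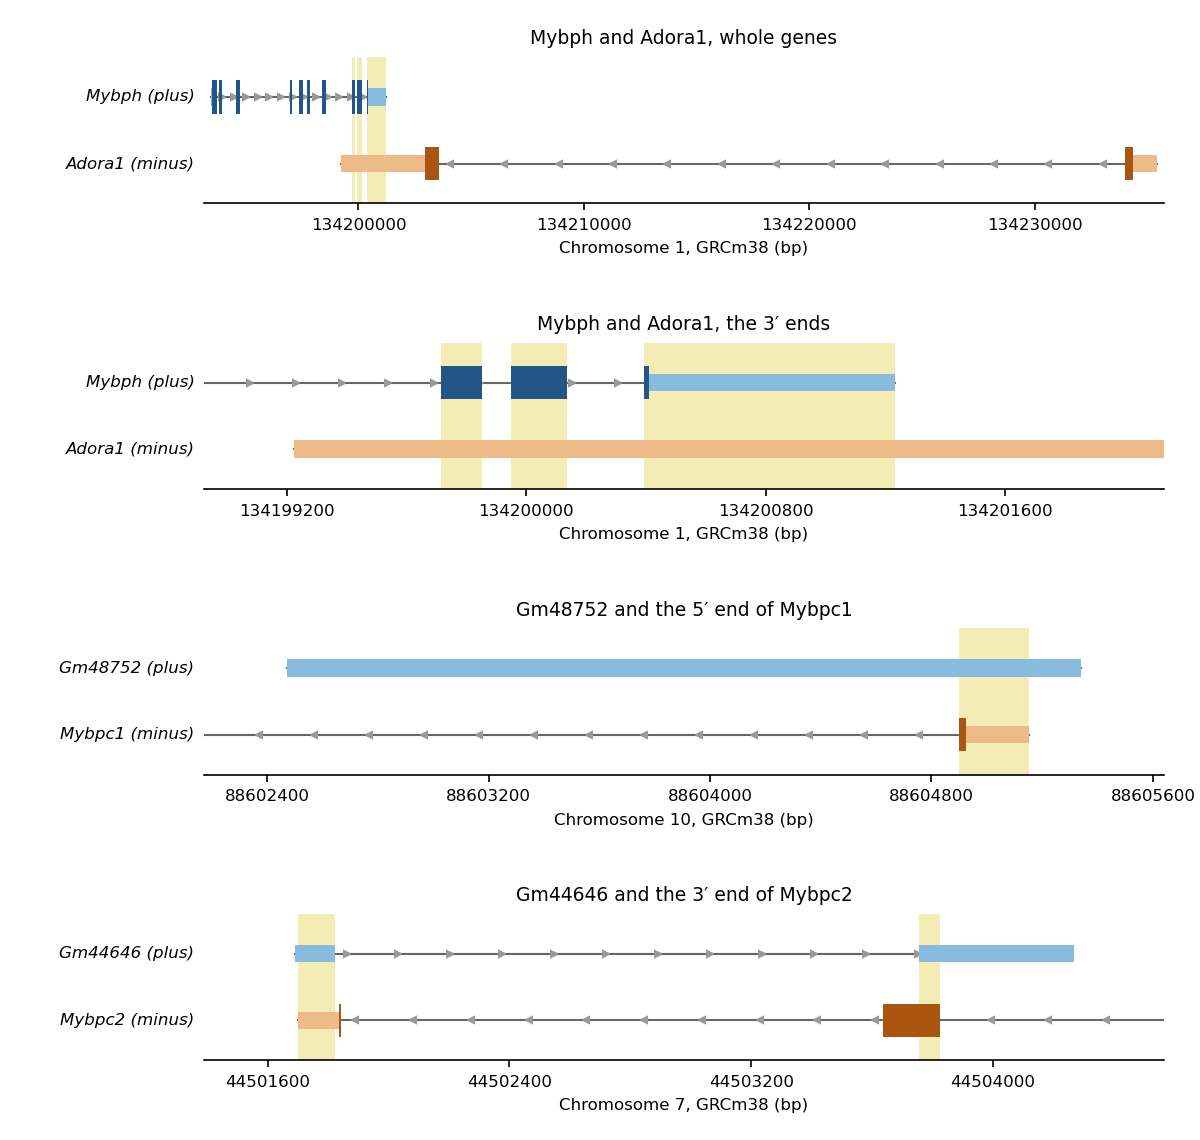
Maps of the loci on GRCm38, with position in bp on the horizontal axis and 1 gene per line; arrowheads give the strand, thin boxes are annotated exons, thick boxes are coding sequence and yellow bands mark bases that are exonic in both genes. *Mybph* and *Adora1* share 1162 exonic bp at their 3′ ends, *Gm48752* and *Mybpc1* share 252 bp and *Gm44646* and *Mybpc2* share 192 bp.

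*Adora1* had the largest log2 fold change between genotypes among the members tested. Its counts were 54, 49 and 154 across iMS*Bmal1*+/+ libraries, against 594, 187 and 388 across iMS*Bmal1*-/- libraries. Every iMS*Bmal1*-/- library lay above every iMS*Bmal1*+/+ library, with the lowest iMS*Bmal1*-/- value in replicate 2 and the highest iMS*Bmal1*+/+ value in replicate 3. The level was 36.9 ± 18.7 CPM (SD, n = 3) in iMS*Bmal1*+/+ muscle, against 185 ± 73.2 CPM (SD, n = 3) for iMS*Bmal1*-/-, a log2 fold change of 2.30 with a standard error of 0.28, or 4.93-fold. Without single libraries, the log2 fold change ranged from 1.97 to 2.83. In bulk muscle, a change in the number of cells that hold an RNA and a change in its amount per cell cannot be told apart.

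*Mybph* had few counts under its own name, with 1, 4 and 9 counts across iMS*Bmal1*+/+ libraries, against 7, 3 and 7 across iMS*Bmal1*-/- libraries. The genotypes overlapped, *Mybph* was removed by the filter, and no fold change is given. The exons of *Mybph* lie over a part of the last exon of *Adora1* on the other strand. Whether the counts named *Adora1* came from transcripts of *Adora1* or from those of *Mybph* was not tested. The difference between genotypes is therefore one of counts under the name *Adora1*.

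The slow form *Mybpc1* had 94, 131 and 110 counts across iMS*Bmal1*+/+ libraries, against 88, 73 and 116 across iMS*Bmal1*-/- libraries, and the genotypes overlapped. This was 52.0 ± 13.7 CPM (SD, n = 3) against 45.8 ± 8.69 CPM (SD, n = 3), at a log2 difference of -0.18 (standard error 0.20) that turned to 0.048 without iMS*Bmal1*+/+ replicate 2. *Gm48752*, which faces it, had far more counts, with 4158, 4084 and 4701 across iMS*Bmal1*+/+ libraries, against 3302, 2449 and 2375 across iMS*Bmal1*-/- libraries. All 3 iMS*Bmal1*-/- libraries lay below the iMS*Bmal1*+/+ libraries once scaled by library size. Its level was 1987 ± 176 CPM (SD, n = 3) in iMS*Bmal1*+/+ muscle, against 1345 ± 185 CPM (SD, n = 3) for iMS*Bmal1*-/-, a log2 fold change of -0.56 with a standard error of 0.11. Without single libraries, it ranged from -0.64 to -0.45. *Gm48752* was not past the threshold without iMS*Bmal1*+/+ replicate 2 or without iMS*Bmal1*-/- replicate 3. Since this contrast chose the members, nothing is read from its call.

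The fast form *Mybpc2* had 318, 390 and 540 counts across iMS*Bmal1*+/+ libraries, against 504, 346 and 614 across iMS*Bmal1*-/- libraries. Scaled by library size, the libraries ranged from 158 to 205 CPM in iMS*Bmal1*+/+ and from 207 to 293 CPM in iMS*Bmal1*-/- muscle, so that the genotypes did not overlap but nearly met. The log2 fold change was 0.35 (standard error 0.14) and ranged from 0.18 to 0.45 without single libraries. *Mybpc2* was not past the threshold, but this contrast chose the members, so that nothing is read from that. *Gm44646*, the facing gene, had 9588, 9546 and 16608 counts across iMS*Bmal1*+/+ libraries, against 12670, 8733 and 12432 across iMS*Bmal1*-/- libraries. It ranked 17 or 18 among all genes by count in each of the 6 libraries and held between 0.458 and 0.611% of their counts. Its genotypes overlapped, with means of 5333 ± 844 CPM (SD, n = 3) and 5558 ± 351 CPM (SD, n = 3), at a log2 difference of 0.06 (standard error 0.12) that turned to -0.023 without iMS*Bmal1*+/+ replicate 1.

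**Figure D2:**
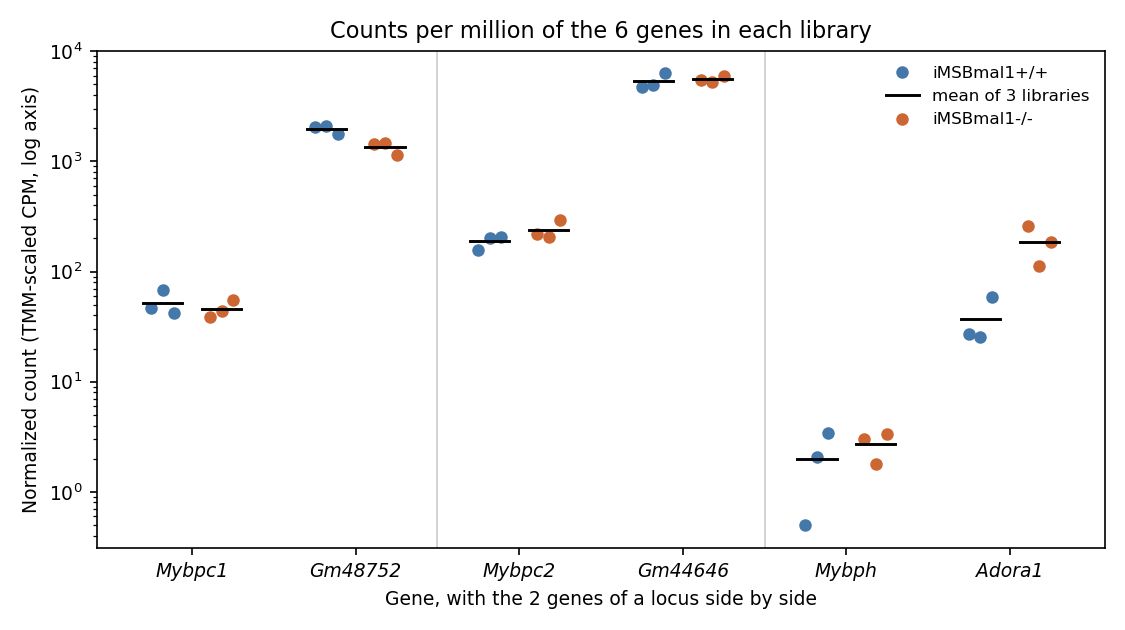
TMM-scaled CPM of the 6 genes (vertical axis, logarithmic) in each library, with blue points for iMS*Bmal1*+/+ and orange points for iMS*Bmal1*-/- libraries and a black line at the mean of 3 libraries. *Adora1* lies between 25.3 and 58.5 CPM in iMS*Bmal1*+/+ and between 112 and 258 CPM in iMS*Bmal1*-/- muscle, and each myosin binding protein gene lies below the gene that faces it.

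In each of the 3 loci, the myosin binding protein gene held the minor share of the counts. *Mybpc1* held 2.54 ± 0.498% (SD, n = 3) of the counts of its pair in iMS*Bmal1*+/+ muscle, against 3.38 ± 1.11% (SD, n = 3) for iMS*Bmal1*-/-. The genotypes overlapped, and the highest value was that of iMS*Bmal1*-/- replicate 3, at 4.66% with a 95% Wilson interval from 3.90 to 5.56%. For *Mybpc2* the share was 3.43 ± 0.432% (SD, n = 3) in iMS*Bmal1*+/+ muscle, against 4.11 ± 0.513% (SD, n = 3) for iMS*Bmal1*-/-. The shares of *Mybpc2* overlapped between the genotypes, since iMS*Bmal1*+/+ replicate 2 was at 3.93% and iMS*Bmal1*-/- replicates 1 and 2 at 3.83 and 3.81%. *Mybph* held 4.96 ± 2.91% (SD, n = 3) of the counts of *Mybph* and *Adora1* in iMS*Bmal1*+/+ muscle, against 1.51 ± 0.310% (SD, n = 3) for iMS*Bmal1*-/-. The lowest iMS*Bmal1*+/+ value, 1.82% in replicate 1, lay just above the highest iMS*Bmal1*-/- value, 1.77% in replicate 3. This share depends on the *Adora1* counts, whose difference chose the members, and on the few *Mybph* counts. At 54 and 49 *Adora1* counts, iMS*Bmal1*+/+ replicates 1 and 2 had 1 and 4 *Mybph* counts and shares of 1.82 and 7.55%. *Mybph* itself was at 1.99 CPM in iMS*Bmal1*+/+ and 2.73 CPM in iMS*Bmal1*-/- muscle, and nothing is read from the separation. With so few counts on *Mybph*, the interval for iMS*Bmal1*+/+ replicate 2 alone ran from 2.97 to 17.9%, and these intervals cover counting error only.

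**Figure D3:**
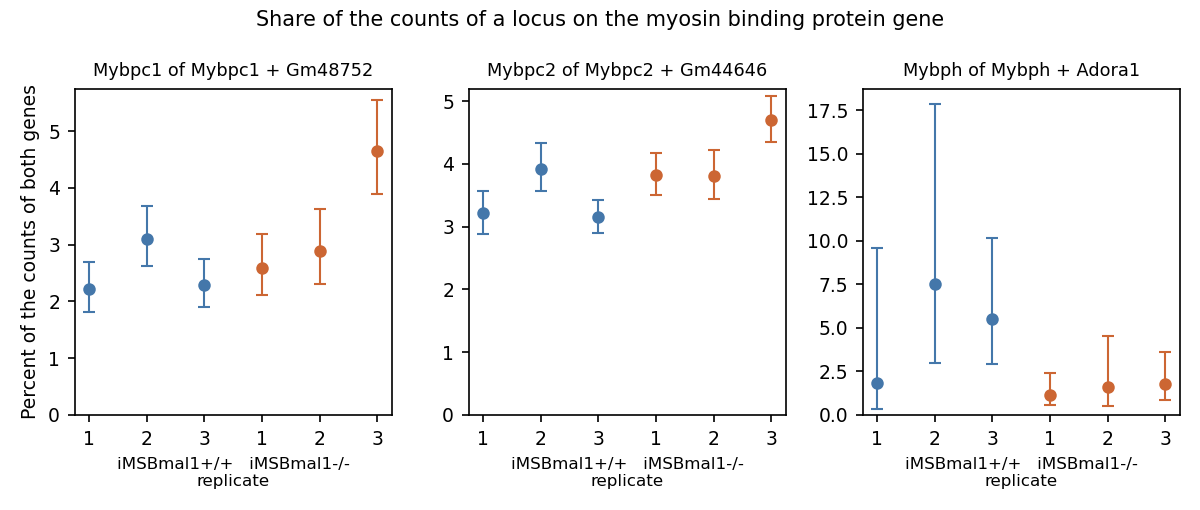
Percent of the counts of a locus that lie on the myosin binding protein gene (vertical axis, from 0), for each of the 6 libraries by genotype and replicate, in blue for iMS*Bmal1*+/+ and orange for iMS*Bmal1*-/-, with 95% Wilson intervals as bars. The shares lie between 2.21 and 4.66% for *Mybpc1*, between 3.15 and 4.71% for *Mybpc2* and between 1.16 and 7.55% for *Mybph*.

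Across the table, shares were taken on whichever gene of a pair had fewer counts. A minor share follows from this choice, so that it is not set against the shares of the members. For 910 pairs of genes that face only each other and have at least 500 counts together, the median share on the gene with fewer counts was 3.70, 4.06 and 3.36% across iMS*Bmal1*+/+ libraries, against 3.82, 4.44 and 4.62% across iMS*Bmal1*-/- libraries. Among the other sarcomere and fast fiber genes of the lists, 11 have a facing gene and at least 500 counts with it, and 9 of these had fewer counts than the genes facing them. Among the 9 were *Tnnc2* (2010 counts against 842868 for *Ube2c*, 592 shared exonic bp) and *Atp2a1* (18498 against 1674470 for *Rabep2*, 763 bp). The exceptions were *Myh7b* and *Myom1*, which share 37 and 207 bp with the genes facing them. Outside this tally, the fiber markers *Des* (3286 counts against 125 for *Gm15179*) and *Mb* (2107 against 25 for *Apol6*) also held most counts of their pairs. They share only 220 and 64 exonic bp with these genes. The fiber marker *Ckm* (9583 against 1092649 for *A930016O22Rik*, 451 bp) did not hold most counts of its pair. The median share on the named gene over these 11 was 3.71, 4.42 and 4.32% across iMS*Bmal1*+/+ libraries, against 5.55, 6.47 and 7.14% across iMS*Bmal1*-/- libraries. This median was the share of *Myh1* in each library. The share of the summed counts of these 11 genes was 2.36, 2.84 and 2.24% across iMS*Bmal1*+/+ libraries, against 2.76, 3.35 and 3.54% across iMS*Bmal1*-/- libraries. The part of this share in the log2 fold change of *Mybpc2* was not tested.

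Both genes of a locus were also summed. Their exons overlap only in part, so that the sum, too, depends on the strand setting of the counting. The sum of *Mybph* and *Adora1* was 38.9 ± 19.9 CPM (SD, n = 3) in iMS*Bmal1*+/+ muscle, against 188 ± 73.8 CPM (SD, n = 3) for iMS*Bmal1*-/-, with a log2 difference of 2.25 (standard error 0.28). For *Mybpc1* and *Gm48752* the log2 fold change of the sum was -0.55 (standard error 0.11). The sum of *Mybpc2* and *Gm44646* differed by 0.07 (standard error 0.12), in place of 0.35 for *Mybpc2* alone, and was -0.014 without iMS*Bmal1*+/+ replicate 1. The sums followed the facing genes, which hold most of the counts.

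Levels of different genes were compared per kilobase of annotated exons. In iMS*Bmal1*+/+ muscle the order was *Gm44646* with 8268 ± 1309 CPM per kb (SD, n = 3), *Gm48752* with 692 ± 61.5, *Mybpc2* with 52.1 ± 7.22, *Mybpc1* with 11.5 ± 3.03, *Adora1* with 6.37 ± 3.23 and *Mybph* with 0.856 ± 0.627. Only the libraries of *Mybpc1* and *Adora1* overlapped among neighbours in this order. In iMS*Bmal1*-/- muscle the means were 8616 ± 543 CPM per kb (SD, n = 3) for *Gm44646*, 469 ± 64.5 for *Gm48752*, 66.4 ± 12.8 for *Mybpc2*, 32.0 ± 12.7 for *Adora1*, 10.1 ± 1.92 for *Mybpc1* and 1.17 ± 0.351 for *Mybph*. There *Adora1* stood above *Mybpc1* in every library, and no neighbours in the order overlapped. Both orders are those of the counts under their deposited names, and the order for reads counted on the other strand was not tested.

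*Mybpc3*, the cardiac form of myosin binding protein C, had between 2 and 4 counts in each library, and *Mybphl* had 0 in all 6. Neither was tested.

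Of 17 genes of myosin and the thick filament, 12 were tested, and 1 was higher, 1 lower and 10 not past the threshold, beside 0.761% higher and 1.07% lower among all genes tested. By edgeR, 9 of the 12 had an unadjusted p under 0.05, beside 814 of all 6831, and 9 were higher in direction. Their median log2 fold change was 0.36, beside -0.00087 over all genes tested. *Mylpf*, the fast regulatory light chain of myosin, had 179, 237 and 286 counts across iMS*Bmal1*+/+ libraries, against 375, 315 and 471 across iMS*Bmal1*-/- libraries and rose from 107 ± 16.8 to 192 ± 30.9 CPM (SD, n = 3 each), with a log2 difference of 0.85 (standard error 0.14, edgeR adjusted p = 0.00241). Its adjusted p from edgeR and the other tools was at most 0.0169 over 12 alternatives. It was higher in 3 of 3 iMS*Bmal1*-/- libraries than in any iMS*Bmal1*+/+ library. *Mylk4*, a gene of the myosin light chain kinase family, had 40, 56 and 65 counts across iMS*Bmal1*+/+ libraries, against 22, 15 and 28 across iMS*Bmal1*-/- libraries and fell by 1.19 on the log2 scale (standard error 0.26, edgeR adjusted p = 0.0207), with all 3 iMS*Bmal1*-/- libraries below the iMS*Bmal1*+/+ libraries. Its call was lost without iMS*Bmal1*+/+ replicate 2 or 3 and without iMS*Bmal1*-/- replicate 1 or 2, where the adjusted p from edgeR was 0.0766, 0.0556, 0.109 and 0.108, and over its 12 alternatives it ranged from 0.00168 to 0.109. The most abundant gene of the list was *Ttn*, which encodes titin, the giant protein to which myosin binding protein C attaches in the thick filament (log2 fold change 0.35, edgeR adjusted p = 0.160). *Gm13938*, which faces *Ttn*, held 565594 counts over the 6 libraries against 55772 for *Ttn*.

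Of 24 tested genes that face a listed gene and are not members, *Myhas* alone was past the threshold. *Myhas* overlaps the exons of *Myh1*, a fast myosin heavy chain, by 515 bp on the opposite strand and held 320898 counts against 16778 for *Myh1*. It had 76065, 61643 and 60422 counts across iMS*Bmal1*+/+ libraries, against 48835, 36870 and 37063 across iMS*Bmal1*-/- libraries, each iMS*Bmal1*-/- library lying below the iMS*Bmal1*+/+ libraries in CPM, with a log2 difference of -0.60 (standard error 0.15, edgeR adjusted p = 0.0447). The call was lost under 8 of 12 alternatives, with adjusted p from edgeR and the other tools between 4.15e-09 and 0.229. *Myh1* itself differed by 0.06 (edgeR adjusted p = 0.912).

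All 12 fast fiber genes were tested, of which 2 were higher, 0 lower and 10 not past the threshold by edgeR, beside the same 0.761% and 1.07% of all genes. All 12 log2 fold changes were positive, with a median of 0.43, and 10 of 12 had an unadjusted p under 0.05. DESeq2 called 2 and limma 2. These are counts under the names of the genes, and for 4 of them, *Myh1* among these, a facing gene held most of the counts of the pair and differed by between -0.60 and 0.14 on the log2 scale. The median of all tested facing genes other than members was 0.012. These 2 were *Mylpf* and *Pvalb*, which encodes the calcium buffer parvalbumin and had 57, 82 and 92 counts across iMS*Bmal1*+/+ libraries, against 143, 113 and 141 across iMS*Bmal1*-/- libraries (0.90 on the log2 scale, standard error 0.17, edgeR adjusted p = 0.00700). Each iMS*Bmal1*-/- library had more *Pvalb* than any iMS*Bmal1*+/+ library, and its adjusted p from edgeR and the other tools was at most 0.0434 over 12 alternatives. *Myh4*, the fastest myosin heavy chain and the most abundant gene of the list, was not past the threshold (0.38, edgeR adjusted p = 0.205). Most slow fiber genes had few counts under their own names, with *Tnni1* at 0 in all libraries and *Myh7* at no more than 1 count in any, which does not show that they were absent. Of the 10 slow fiber genes, *Atp2a2* was the only gene tested and the most abundant, with 36.1 ± 5.39 CPM (SD, n = 3) in iMS*Bmal1*+/+ muscle, against 36.6 ± 6.55 CPM (SD, n = 3) for iMS*Bmal1*-/-. The edgeR test called 0 genes of this list, with 0 at an unadjusted p under 0.05 and 0 by DESeq2 or limma.

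In the M-band, where thick filaments are cross-linked, 7 of 9 genes were tested and edgeR called 0, with a median log2 fold change of 0.08. At an unadjusted p under 0.05 there were 2, and DESeq2 and limma called 0. Of 12 genes of denervation and regeneration, 2 were tested and 0 were past the threshold by edgeR, DESeq2 or limma, with 1 at an unadjusted p under 0.05. That gene was *Myh8*, the perinatal myosin heavy chain and the most abundant of the list, which had 66 of its counts in iMS*Bmal1*+/+ replicate 2 and at most 13 in any other library.

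*Adora1* was the most abundant gene of the adenosine list by mean CPM, although *Ampd3* exceeded it in iMS*Bmal1*+/+ replicate 1, at 57 against 54 counts. The other 18 genes gave no call. Of these, 6 were tested, with a median log2 fold change of 0.05 and a range from -0.53 to 0.57. By edgeR, DESeq2 and limma 0 were past the threshold, and 0 had an unadjusted p under 0.05. *Adora3*, *Entpd1* and *Gnai1* had 0 counts in all libraries. Among the other adenosine receptors, *Adora2a* had at most 4 and *Adora2b* at most 13 counts in a library. The tested genes were those of adenosine and AMP turnover and of inhibitory G proteins, and no adenosine transporter reached the filter.

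The genes whose pattern over the 6 libraries was most like that of a member were found by the root mean square difference of log2 CPM, centred on each gene, among 4452 tested genes with at least 10 CPM. For *Mybpc2* these were *Myh4* (0.0863), *Tnni2* (0.0867) and *Mylk2* (0.0902), beside a median difference of 0.345 over all genes compared. The log2 fold changes between genotypes of these fast fiber and myosin genes were 0.38, 0.46 and 0.37. For *Gm44646* they were *Ascl4* (0.0296), *Ccdc189* (0.0367) and *Gm44140* (0.0390), beside a median of 0.266.

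For *Gm48752* the nearest were *Zfp646* (0.0681), *4930458D05Rik* (0.0727) and *H19* (0.0741), beside a median of 0.381. Their log2 fold changes were -0.55, -0.60 and -0.70. For *Mybpc1* they were *Ddx19a* (0.0703), *Pik3ip1* (0.0730) and *Gm16006* (0.0782), beside a median of 0.352. *Adora1* had no match as close. The nearest to it were *Tmem104* (0.414), *Mboat1* (0.554) and *1700071M16Rik* (0.567), beside a median of 1.29. For each member, this likeness includes the genotype difference that chose it, and *Tmem104* and *Mboat1* reached a mean of 10 CPM only through the iMS*Bmal1*-/- libraries, so that nothing is read from it.

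Within 50000 bp of the 6 members, the annotation places 20 other genes of the table. Of these, 4 passed the filter and 0 were past the threshold by edgeR, DESeq2 or limma, with 0 at an unadjusted p under 0.05, and 11 had at most 3 counts in every library. On chromosome 1, *Chil1*, 3267 bp from *Mybph*, had at most 3 counts in a library, and *Chit1* and *Gm24517* had 0. No neighbour on chromosome 1 was tested, so that the reach of the *Adora1* difference along the chromosome was not tested either. On chromosome 10, *Sycp3*, 45043 bp from *Mybpc1*, had between 390 and 647 counts (log2 fold change 0.17, edgeR adjusted p = 0.696), *Chpt1* had 0, 0 and 3 counts across iMS*Bmal1*+/+ libraries, against 6, 4 and 5 across iMS*Bmal1*-/- libraries, and *Gm8435* and *Gm48106* had 0. On chromosome 7, *Fam71e1*, 203 bp from *Gm44646*, had between 31 and 60 counts (-0.30, edgeR adjusted p = 0.674). The other tested neighbours there were *Napsa* (0.27, edgeR adjusted p = 0.861) and *5430431A17Rik* (0.15, edgeR adjusted p = 0.945).

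The tissue was checked against defining markers of skeletal muscle and of other cell types. All 8 markers of skeletal muscle fibers were tested, with 0 past the threshold by edgeR or limma and 1 by DESeq2. With the replicate block 3 were past it, and 7 had an unadjusted p under 0.05 by edgeR without the block. The summed level of all 8 was 6774, 9011 and 8177 CPM in iMS*Bmal1*+/+ and 9689, 9783 and 11542 CPM in iMS*Bmal1*-/- libraries, with *Myh4* as the most abundant. Heart markers summed to between 6.20 and 10.8 CPM, with *Nppa* as the most abundant and *Tnni3* at 0. Markers of satellite cells summed to at most 3.59 CPM, with *Cdh15* as the most abundant and *Chodl* at 0. For nerve and Schwann cells, the sum ranged from 5.16 to 12.2 CPM, led by *S100b*. It was highest in iMS*Bmal1*-/- replicate 1, the library with the most *Adora1*, but iMS*Bmal1*-/- replicates 2 and 3, at 5.99 and 6.68 CPM, lay within the iMS*Bmal1*+/+ range. The part of nerve in the *Adora1* counts was not tested.

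The macrophage markers summed to between 48.5 and 84.1 CPM, of which *Csf1r* alone held between 44.3 and 81.6 CPM, with *Adgre1* at 0. In the blood list, *Alas2* alone held between 150 and 210 CPM, while the globin genes *Hba-a1*, *Hbb-bs* and *Hbb-bt* had at most 3 counts in any library. Adipocyte markers (led by *Fabp4*) lay between 7.96 and 12.6 CPM, endothelial markers (led by *Cdh5*) between 9.87 and 16.5 CPM and fibroblast markers (led by *Col3a1*) between 19.0 and 47.9 CPM. Of the tested genes in these lists, and of the heart list, edgeR, DESeq2 and limma called 0, and 1 macrophage gene, *Csf1r*, had an unadjusted p under 0.05. None of the satellite, nerve or Schwann cell markers passed the filter. The summed markers of skeletal muscle fibers, 8 genes against 4 or 5 in each other list, were thus far above the sums of the other cell types. These are counts under the deposited names. For *Ckm* and *Atp2a1*, but not for *Des* and *Mb*, the facing gene held most counts of the pair. Not every single fiber marker was above every marker of the other cell types. The fiber marker *Actn2*, with means of 29.5 CPM in iMS*Bmal1*+/+ and 42.8 CPM in iMS*Bmal1*-/- muscle, lay below the means of *Csf1r* and *Alas2*. Low counts of the other cell types under their own names do not show that these cells were absent.

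The upstream sequences are shown because *Mybph* and *Adora1* start from separate promoters at the far ends of their shared locus, while *Gm48752* crosses the start of *Mybpc1*. RefSeq promoter windows on GRCm38.p6 were found for 4 of the 6 members, and the 250 bases before the annotated start were searched on both strands for CACGTG (the E-box bound by BMAL1 and CLOCK), CAGCTG (an E-box bound by myogenic factors), TTATGTAA (the D-box), AGGTCA (a nuclear receptor site) and TATAAA (the TATA box). Over all 32851 windows of this length, 6.02% hold CACGTG, 0.819% TTATGTAA, 14.0% AGGTCA and 12.4% TATAAA, while CAGCTG is in 4271 of the 32851. In *Mybph*, CAGCTG begins 79 bases before the start, the reverse complement of AGGTCA begins 92 bases and that of TATAAA 39 bases before it, with no overlap among them. In *Mybpc1*, CAGCTG begins 87 bases before the start. Neither the *Adora1* windows, of which there are 2, nor that of *Mybpc2* hold any of the letters searched, and CACGTG was in none of the windows. A match is a description of letters and not of binding. Below, capitals mark the motifs, for *Mybph* on the plus strand at chr1:134193198-134193447, for the outer *Adora1* window on the minus strand at chr1:134235458-134235707 and for *Mybpc1* on the minus strand at chr10:88605153-88605402.
Mybph: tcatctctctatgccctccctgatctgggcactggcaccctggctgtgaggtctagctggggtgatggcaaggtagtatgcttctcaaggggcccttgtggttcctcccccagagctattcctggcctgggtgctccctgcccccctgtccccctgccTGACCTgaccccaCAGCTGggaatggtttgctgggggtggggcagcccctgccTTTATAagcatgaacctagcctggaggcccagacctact
Adora1: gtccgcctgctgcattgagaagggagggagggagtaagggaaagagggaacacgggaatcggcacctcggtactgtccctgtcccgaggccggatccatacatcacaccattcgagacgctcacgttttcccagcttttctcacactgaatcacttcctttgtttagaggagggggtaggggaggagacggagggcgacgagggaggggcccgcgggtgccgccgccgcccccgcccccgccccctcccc
Mybpc1: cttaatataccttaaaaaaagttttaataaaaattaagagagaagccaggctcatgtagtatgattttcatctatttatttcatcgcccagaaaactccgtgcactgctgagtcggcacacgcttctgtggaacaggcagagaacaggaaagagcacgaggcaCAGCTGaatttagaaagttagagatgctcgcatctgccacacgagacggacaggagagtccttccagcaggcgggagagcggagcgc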

How the data were processed

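Libraries of 6 TA muscles were prepared with a stranded kit after ribosomal RNA depletion. Reads were aligned by the authors with HISAT2 (mm10) and assigned to genes with HTSeq. They deposited raw counts, without normalization. The authors also deposited a normalized signal per gene, which in each library is the raw count divided by 1 DESeq2 size factor. Versions of these tools and the strand setting are not given in the sources used here. Columns were assigned by sample label, and 0 were left unassigned.

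Here, TMM in edgeR 4.0.16 (R 4.3.3) scaled the counts, which were filtered with edgeR's default filter by genotype and compared with its quasi-likelihood test, two-sided. CPM are counts divided by the TMM-scaled library size. Alternatives were DESeq2 1.42.0, no filter, at least 10 counts in every library, upper-quartile scaling, limma 3.58.1 on log2(normalized signal + 1), the replicate number as a block, leaving out each library, and facing pairs replaced by their sum. Levels per length were repeated without TMM factors and on the longest transcript. The code was tested on simulated data. Between any 2 libraries of a genotype, chi-square divided by its degrees of freedom was between 2.88 and 10.1, more than sampling alone gives.

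The members and lists were chosen with earlier results of these data known. Named were the 6 members, the rest of their family, list genes past the threshold and the most abundant of most lists, genes within 50000 bp or facing a named gene, the 3 genes most like each member with at least 10 CPM (prior count of 2), and *Arntl*. Genes with 0 counts, the globins, the other adenosine receptors, *Actn2*, *Ampd3*, *Atp2a1*, *Ckm*, *Des*, *Mb* and *Tnnc2* were named after their values were seen. Genes were matched to GENCODE mouse release 21, in which 147 of 52636 identifiers were not found. Overlaps were computed with bedtools 2.31.1, tables with pandas 2.3.3 under Python 3.11.15 and figures with matplotlib 3.10.9.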

Additional observations from a re-analysis of the deposited data

How the results depend on the processing

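The counts per gene give no position within a gene, and *Mybph* had at most 3 counts in some libraries. The number of genes past the threshold, 125, was 219 without the filter on low counts and 220 with the replicate block, and between 60 (without iMS*Bmal1*-/- replicate 2) and 109 with 1 library left out. Between libraries with the same replicate number, the correlations of their deviations were -0.037, -0.017 and -0.029. With 3 libraries per genotype, this does not show whether the numbers mark pairs. With 1 library left out, 1 or 2 members were past it: 1 when iMS*Bmal1*+/+ replicate 2 was left out, and 1 when iMS*Bmal1*-/- replicate 3 was, the call lost being that of *Gm48752*. In the thick filament list, 5 genes were past it without the filter, 4 with the replicate block and between 1 and 3 with 1 library left out. In the fast fiber list these were 4 without the filter and 7 with the replicate block, and 1 gene of denervation and regeneration was past it without the filter. The log2 fold change of *Mybpc1* turned to 0.048 without iMS*Bmal1*+/+ replicate 2 and was -0.34 without iMS*Bmal1*-/- replicate 3. Without iMS*Bmal1*+/+ replicate 1, *Gm44646* turned to -0.023 and the sum of *Mybpc2* and *Gm44646* to -0.014, and without replicate 3 they were 0.19 and 0.20. Summed with their facing genes, *Mybpc1* was at -0.55 and *Mybpc2* at 0.070. Per kilobase of the longest transcript, *Gm44646* was at 10396 in iMS*Bmal1*+/+ and 10833 in iMS*Bmal1*-/-, as its length was then 513 bp in place of 645 bp. The summed values follow the facing genes, which hold most of the counts. The cause of the other shifts was not tested.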
